A study of Mus musculus with 7 samples.

Results

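The genes described here build the axoneme, the microtubule core of motile cilia. All genes whose symbol begins with Cfap, Dnah, Dnai, Dnaaf, Rsph or Tekt, or with Drc and a digit, were taken, which gave 72 of the 32285 genes in the count matrices: 33 Cfap, 16 Dnah, 2 Dnai (Dnaic1 and Dnaic2), 5 Dnaaf, 8 Rsph, 5 Tekt and 3 Drc genes. With a digit required after every stem, 70 would remain. The rule uses names and no measured value, though it was proposed with earlier results of these data known. The samples were 7 single-cell RNA-seq libraries from the ventricular-subventricular zone (V-SVZ) of mice at postnatal day 31 to 33, each made from the pooled tissue of 2 to 3 animals of both sexes. The 3 control libraries carried the floxed Prdm16 alleles without Cre (genotype label Prdmflox/flox). The 3 Prdm16 cKO libraries were hGFAP-Cre+/-; Prdm16flox/flox, and the single DKO library also carried Vcam1flox/flox, so all 7 shared the floxed Prdm16 alleles and only the controls lacked Cre. The human GFAP promoter drives this Cre in embryonic radial glia and in their descendants, which include ependymal cells, adult neural stem cells (NSCs) and astrocytes. Because tissue was pooled, 1 library is 1 replicate, and p-values between genotypes judge a difference against the spread between libraries. Comparisons between cell classes used library as a block and judge a difference against the spread of differences within libraries.

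Ependymal cells line the ventricles and carry tufts of motile cilia whose beat moves cerebrospinal fluid, while the NSCs and astrocytes beside them carry at most a primary cilium without motility. In the motile axoneme, dynein heavy chains (Dnah) and intermediate chains (Dnai) form the motor arms, and Dnaaf proteins assemble these arms in the cytoplasm before transport. Radial spoke proteins (Rsph) and the nexin-dynein regulatory complex (Drc) relay control signals to the motors. Tektins (Tekt) and many cilia and flagella associated proteins (Cfap) sit inside or along the doublet microtubules. The programme is switched on by Foxj1 and by the Rfx factors, which bind X-box sequences.

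The sequence upstream of the transcription start was available for 59 of the 72 genes (RefSeq, GRCm38.p6). The letters GTTGCC, the core of an Rfx half-site, were searched on both strands of the 250 bases before each start and were found for 18 of the 59 genes (30.5%), against 11.8% of 27025 genes with such a sequence. A fuller X-box pattern, spelled GTNNCC, any 2 bases and GGNAAC, was found for 4 (6.78%), against 1.24%, and a forkhead motif, TGTTTAC, for 4 (6.78%), against 3.54%. The half-site letters can lie inside the fuller pattern. A match is a description of letters and not of binding. The stretches below were chosen after the results were known. The Dnah7 copies share transcript sequence, Tekt1 and Cfap97d2 recur in the comparisons, Dnaic2 is a Dnai gene, and the last 4 hold the fuller pattern. Each is written 5′ to 3′ on the strand of its gene, with the motif letters in capitals. In Cfap206 and Dnaaf5 the fuller pattern is read on the opposite strand, and GGCAAC is the half-site read on the opposite strand.
Dnah7a (chr1:53706955-53707008, minus strand): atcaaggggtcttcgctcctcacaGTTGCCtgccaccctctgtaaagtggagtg
Dnah7b (chr1:46066666-46066719, plus strand): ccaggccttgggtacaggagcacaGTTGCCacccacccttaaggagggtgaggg
Dnah7c (chr1:46425275-46425328, plus strand): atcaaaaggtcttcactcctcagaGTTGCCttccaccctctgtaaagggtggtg
Tekt1 (chr11:72361888-72361941, minus strand): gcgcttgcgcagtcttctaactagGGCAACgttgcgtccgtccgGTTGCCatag
Cfap97d2 (chr8:13705846-13705888, plus strand): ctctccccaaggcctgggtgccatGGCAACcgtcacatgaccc
Dnaic2 (chr11:114727369-114727418, plus strand): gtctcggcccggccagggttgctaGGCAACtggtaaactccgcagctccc
Cfap298 (chr16:90935000-90935061, minus strand): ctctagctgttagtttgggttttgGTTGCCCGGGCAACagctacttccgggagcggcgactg
Cfap206 (chr4:34730207-34730253, minus strand): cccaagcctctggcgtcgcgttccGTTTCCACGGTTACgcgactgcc
Tekt4 (chr17:25471406-25471467, plus strand): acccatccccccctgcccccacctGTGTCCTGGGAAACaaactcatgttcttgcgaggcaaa
Dnaaf5 (chr5:139150193-139150234, plus strand): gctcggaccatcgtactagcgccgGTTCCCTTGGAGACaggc
Over these 54 bases, Dnah7a and Dnah7c were identical at 46 positions, and Dnah7b was identical to Dnah7a at 24 and to Dnah7c at 22. The stretches were lined up on the GTTGCC letters, so those positions match by construction.

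Cells were kept with 500 to 7000 detected genes and at most 10% mitochondrial UMIs, as the study filtered them, which left 43346 cells, 1868 to 9502 per library. The libraries held 45758003 to 141353017 UMIs. In cKO libraries 2 and 3 only 49.8% and 47.2% of barcodes passed, against 70.2% to 74.7% elsewhere. A cell was assigned to 1 of 13 classes by the share of its UMIs in panels of 8 marker genes, none of them an axoneme gene described here, and cells with a strong second panel were set aside as mixed (7921 cells). The classes of main interest held 1750 ependymal-like, 4086 NSC-like and 2186 astrocyte-like cells. In the ependymal-like cells each of the 8 ependymal markers was present in every library, and their sum ran from 11209 to 14484 CPM, against 289 to 524 CPM in NSC-like and 51.7 to 112 CPM in oligodendrocyte-like cells. CPM (counts per 10 to the power of 6) is the number of UMIs of a gene scaled to the total UMIs of that class in that library. Ependymal-like cells were 1.84% to 6.15% of kept cells in the control, 3.10% to 6.53% in the cKO and 2.76% in the DKO libraries. A total of 1080 kept cells, 144 of them ependymal-like, carried a barcode that also occurred in another library. Prdm16 itself was counted at 70.8, 54.3 and 66.0 CPM in control NSC-like cells and at 49.99, 49.9 and 40.4 CPM in cKO NSC-like cells. In astrocyte-like cells it was counted at 52.1, 48.2 and 45.3 CPM in control and 50.2, 63.3 and 53.9 CPM in cKO libraries, which overlapped. In ependymal-like cells it was counted at 28.1, 27.1 and 19.9 CPM in control and 18.3, 11.8 and 10.7 CPM in cKO libraries. None of the 3 differences passed the test (adjusted p = 0.34, 0.76 and 0.33 in NSC-, astrocyte- and ependymal-like cells, edgeR). The 3′ reads need not cover the deleted part of the gene, so this is a limited check of the genotype. Vcam1 in astrocyte-like cells stood at 165 CPM in the DKO library and at 315 to 404 CPM in the other 6.

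The axoneme genes together made up 1.22% of the UMIs of ependymal-like cells. Their sum was 13219, 12252 and 11812 CPM in the control libraries, 13264, 11635 and 11159 CPM in the cKO libraries and 12153 CPM in the DKO library, and the groups overlapped. Among the 11 classes with at least 10 cells in every library, NSC-like cells came next with a mean of 1181 ± 247 CPM (SD, n = 7 libraries), then neuron-like cells with 619 ± 45.9 CPM and astrocyte-like cells with 602 ± 69.6 CPM. The means for neuron-like and astrocyte-like cells differed by less than their spread. The lowest of these classes was oligodendrocyte-like cells with 287 ± 16.9 CPM. The 10 choroid plexus-like cells, 0 to 4 per library, stood at 2159 CPM when pooled and were not compared further. Thinned to 2000 UMIs each, ependymal-like cells showed a median of 15 to 19 of the 72 genes per library, NSC-like cells 1 to 2 and astrocyte-like cells 1. Shallower cells were left out of that count, and unthinned the ependymal-like medians were 17 to 47 genes. By stem, the Cfap genes supplied 48.8% of the axoneme UMIs of ependymal-like cells, the Dnah genes 17.6%, the Rsph genes 17.3%, the Drc genes 6.63%, the Tekt genes 4.48%, the Dnaaf genes 2.84% and the Dnai genes 2.42%.

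**Figure D1:**
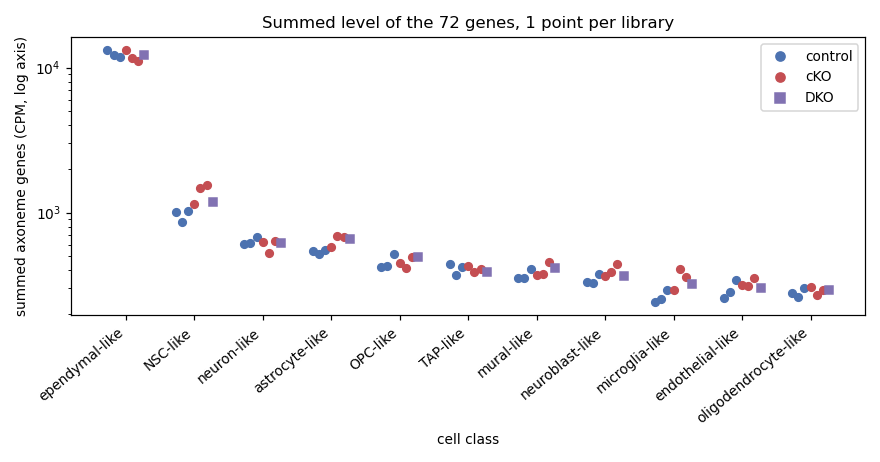
Summed level of the 72 genes in CPM on a log axis for each of 11 cell classes, with 1 point per library coloured by genotype. Ependymal-like cells lie between 11159 and 13264 CPM, and NSC-like cells, at 868 to 1542 CPM, lie above every library of the other 9 classes.

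Of the 72 genes, 65 had their highest mean in ependymal-like cells among the 11 classes with at least 10 cells in every library. For 61 of them the lowest ependymal-like library lay above the highest library of every other class. Mean ependymal-like levels were at least 100 CPM for 42 genes, 10 to 100 CPM for 24 and under 1 CPM for 5. These are 3′ UMI counts, in which the length of a transcript has no direct part, but capture can differ between genes. Against NSC-like cells of the same libraries, 66 of the 67 genes that passed the filter on low counts were higher in ependymal-like cells (edgeR quasi-likelihood test with library as a block, Benjamini-Hochberg adjusted p under 0.05), where 34.8% of all genes tested were higher and 38.6% lower. The median log2 difference was 4.43 over the axoneme genes and -0.08 over all genes tested. Against astrocyte-like cells 66 of 67 were also higher, and 0 lower, where 39.2% and 37.6% of all genes were, with a median log2 difference of 5.97 against 0.01. The classes were cut on marker genes that belong in part to the same programme, such as Foxj1 and Dynlrb2. With 4 markers outside it (Rarres2, Mia, Pltp and Hdc), 66 genes were again higher in both comparisons.

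The radial spoke gene Rsph1 (17:31255019-31277383, all gene coordinates GRCm38) was the most abundant, with 1273, 1189 and 1225 CPM in control, 1462, 1053 and 1156 CPM in cKO and 1313 CPM in DKO ependymal-like cells. In NSC-like cells it averaged 49.5 CPM, a log2 difference of 4.80 ± 0.225 (SE; adjusted p = 6.7e-07, edgeR). Rsph4a, another spoke head gene (10:33905111-33916021), averaged 389 ± 65.5 CPM (SD, n = 7) in ependymal-like cells and 13.9 CPM in NSC-like cells. Among Cfap genes the highest were Cfap126 at 566 ± 53.7 CPM, Cfap54, a central apparatus component, at 501 ± 43.0 CPM, and Cfap45 at 340 ± 40.3 CPM. Among the dynein heavy chains they were Dnah6, an inner arm chain, at 375 ± 50.7 CPM, Dnah12 at 362 ± 53.7 CPM and Dnah5, an outer arm chain, at 301 ± 38.5 CPM. Dnah12 was the most restricted of these, with 4.11 CPM in NSC-like and 0.86 CPM in astrocyte-like cells (log2 differences 6.57 ± 0.16 and 8.44 ± 0.16).

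The nexin-dynein regulatory complex genes Drc3, Drc1 and Drc7 stood at 376 ± 75.7, 248 ± 24.6 and 186 ± 30.6 CPM in ependymal-like cells. Tektin levels were 344 ± 26.7 CPM for Tekt1, 170 ± 30.0 CPM for Tekt4 and 18.8 ± 5.66 CPM for Tekt3. The outer arm intermediate chains Dnaic1 and Dnaic2 stood at 180.5 ± 18.3 and 115 ± 13.2 CPM. The arm assembly factors Dnaaf4, Dnaaf3 and Dnaaf1 stood at 133 ± 9.76, 82.2 ± 17.0 and 57.2 ± 8.12 CPM.

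**Figure D2:**
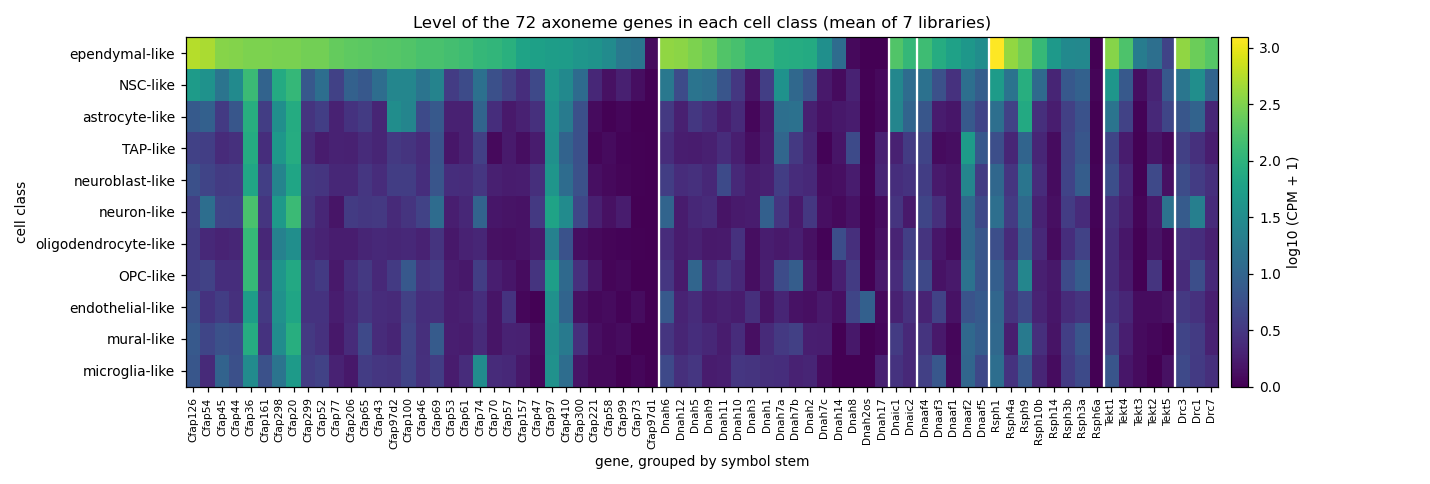
Mean level over 7 libraries of each of the 72 genes (columns, grouped by stem) in 11 cell classes (rows), as log10 of CPM + 1. The ependymal-like row is the brightest for 65 genes, while Cfap36, Cfap20, Cfap298 and Cfap97 are visible in every class.

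A small set of these genes was also found in the astroglial classes above the mean level of the other classes compared, apart from ependymal-like cells. The median astrocyte-like level was 1.39% of the ependymal-like level over the 66 genes with at least 10 CPM there. In oligodendrocyte-like cells, which should lack motile cilia, the median level was 0.53%. The oligodendrocyte-like cells were deeper, with a median of 18610 UMIs per cell against 6880.5 in astrocyte-like cells. The part of depth in this contrast was not tested. Rsph9, a spoke gene (17:46122035-46144216), stood at 56.0 to 83.5 CPM in astrocyte-like and 77.7 to 93.0 CPM in NSC-like cells, 27.6% and 31.99% of its ependymal-like mean. In neuroblast-like cells it stood at 9.36 to 17.8 CPM and in oligodendrocyte-like cells at 3.64 to 8.90 CPM, with no overlap between these and the astroglial libraries. In oligodendrocyte precursor-like cells Rsph9 averaged 25.1 CPM. Cfap97d2 averaged 31.7 CPM in astrocyte-like cells (16.8% of ependymal-like), Dnaic1 24.4 CPM (13.5%), Cfap100 24.3 CPM (13.7%) and Dnah7b 13.4 CPM (16.6%). In oligodendrocyte-like cells Cfap97d2, Dnaic1 and Cfap100 each averaged under 1.4% of their ependymal-like level. Dnah7b and Cfap100 averaged 7.17 and 6.21 CPM in oligodendrocyte precursor-like cells. Tekt1 and Dnah7a reached 12.1% and 44.1% of the ependymal-like level in NSC-like cells and 4.21% and 14.9% in astrocyte-like cells. Dnah7a averaged 9.51 CPM in transit-amplifying progenitor-like cells, near its 12.6 CPM in astrocyte-like cells. Read counts of Dnah7a, Dnah7b and Dnah7c are uncertain, because 45.3% to 52.8% of the 31-base words of their longest transcripts are shared between any pair. The same holds for Rsph3a and Rsph3b, which share 80.1% to 80.7%. Over the last 500 words, nearest the 3′ end, the shares were 38.2% to 64.2% for the Dnah7 copies and 90.2% for Rsph3a and Rsph3b.

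Other genes were not highest in ependymal-like cells or were also found in other classes. Cfap97 was highest in neuron-like cells (60.4 CPM, against 51.1 CPM in ependymal-like cells), Dnaaf2 in transit-amplifying progenitor-like cells (48.5 against 42.2 CPM) and Tekt5 in neuron-like cells (13.6 against 3.14 CPM). For Cfap97 and Dnaaf2 these differences were smaller than 1 SD between libraries in at least 1 of the classes compared. Tekt5 was the sole axoneme gene called lower in ependymal-like than in NSC-like cells (log2 difference -0.81 ± 0.24, adjusted p = 0.0070, edgeR), a call that was lost without control library 1 (-0.58). Cfap36 and Cfap20 were present in every class, with 159 and 126 CPM in neuron-like cells against 305 and 294 CPM in ependymal-like cells. Cfap74 stood at 20.7 to 44.1 CPM in microglia-like cells and 113 CPM in ependymal-like cells. Dnah2os, an antisense gene within Dnah2 (11:69448548-69453676), was found mainly in endothelial-like cells at 4.15 to 9.49 CPM. Dnah8, Dnah17 and Rsph6a, which are known from sperm, stayed under 1 CPM in ependymal-like cells.

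In ependymal-like cells no axoneme gene passed the test between Prdm16 cKO and control. The class was set in part on ciliary markers, so a cell that lost them could fall outside it. Of 67 genes tested, 0 were called higher and 0 lower by edgeR (0.0606% and 0.00758% of 13196 genes were). DESeq2 also called 0 (0.371% and 0.0606% of all genes). At an unadjusted p under 0.05 there was 1 higher (Dnah6) and 1 lower (Cfap46), where 3.66% and 4.01% of all genes were. The median log2 difference was -0.02 over the axoneme genes and 0.00 over all genes, and 66 of the 67 lay within 0.5 of 0. Dnah6 stood at 335, 299 and 359 CPM in control and at 452, 418 and 376 CPM in cKO libraries. The groups did not overlap, with a log2 difference of 0.38 ± 0.17 (adjusted p = 0.62, edgeR). Cfap46 stood at 200, 190 and 150 CPM in control and at 135, 133 and 139 CPM in cKO libraries (-0.33 ± 0.15, adjusted p = 0.65). In all, for 2 of 67 genes the 3 cKO libraries lay above the 3 controls and for 1 they lay below, where 4.67% and 7.02% of all genes did. Of the 8 class markers, only Mia had all cKO libraries below the controls, and 0 had them all above. Mia stood at 1043, 1449 and 1548 CPM in control and 1001, 564 and 589 CPM in cKO libraries (adjusted p = 0.26, edgeR). The 4 non-ciliary markers summed to 6596, 8151 and 7441 and to 6901.5, 6050 and 5742 CPM. The 4 ciliary ones summed to 4703.5, 6333 and 5687 and to 5471, 5607 and 5467 CPM. The part of these markers in the result was not tested.

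The further increases among axoneme genes above a mean log2 CPM of 4 were Cfap69 (0.39 ± 0.27), Cfap99 (0.38 ± 0.26), Cfap73 (0.31 ± 0.25) and Dnah11 (0.29 ± 0.17). The further decreases were Dnah3 (-0.45 ± 0.28), Tekt3 (-0.42 ± 0.24), Rsph3a (-0.33 ± 0.42) and Cfap206 (-0.30 ± 0.17). None passed the test, with adjusted p of 0.77 to 0.92 (edgeR). Dnah3, an inner arm chain, ran from 101 to 177 CPM in control and from 67.9 to 148.5 CPM in cKO libraries, with cKO library 1 the highest cKO library. Without cKO library 1 it was called lower (-0.84, adjusted p = 0.046, edgeR), where 1.46% of all genes were called lower and 1.35% higher. For the most abundant gene, Rsph1, the log2 difference was 0.05 with an approximate 95% interval of -0.31 to 0.41. The interval used a normal multiplier of the SE, so with few libraries it may be too narrow.

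Other cilium genes gave no call either. Of 43 axoneme genes with other names that were tested (Ccdc39 and Ccdc40 among them), 0 were called and the median log2 difference was 0.01. Of 28 intraflagellar transport genes, which carry cargo along the cilium, 0 were called (median -0.02). Of 9 regulators of multiciliated cells, 0 were called (median -0.05). Of these, 2 lay above 0 and 7 below, from 0.46 ± 0.45 (Gmnc) to -0.82 ± 0.37 (Ccno). Foxj1 stood at 543 to 725 CPM in control and 536 to 776 CPM in cKO libraries. It is 1 of the markers that set this class, so its level was partly fixed by the selection. The DKO library lay above all controls for 14 of the 67 axoneme genes and below all controls for 22, where 21.4% and 33.3% of all genes did. With 1 library this group has no replicate check.

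**Figure D3:**
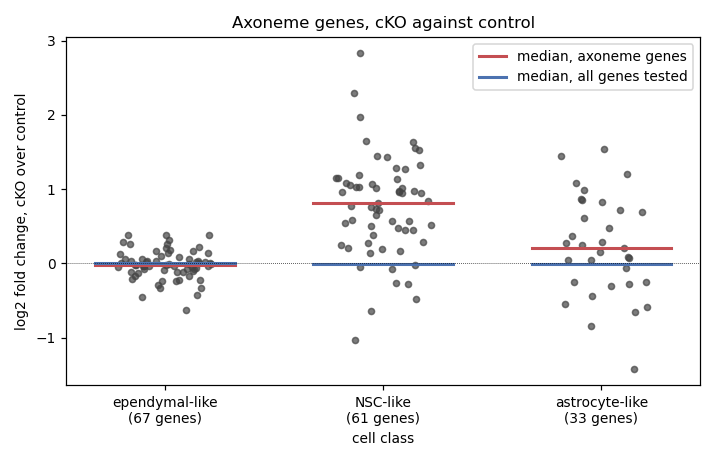
Log2 fold change of cKO over control for each axoneme gene that was tested (points) in ependymal-like, NSC-like and astrocyte-like cells, with the median of the axoneme genes in red and that of all genes tested in blue. The points spread around 0 in ependymal-like cells and lie mostly above it in NSC-like cells, where the median is 0.81.

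In NSC-like cells the axoneme genes were higher in cKO than in control libraries as a group of values, but no single gene passed the test. Of 61 genes tested, 0 were called by edgeR in either direction (0.0283% of 14144 genes were called higher and 0.00707% lower). At an unadjusted p under 0.05, 31 were higher and 0 lower, where 7.88% and 5.3% of all genes were. DESeq2 called 13 higher and 0 lower (2.69% and 0.41% of all genes). Without a filter on low counts 11 were called higher (1.72%; 0.529% lower), with the replicate number as a block 10 (2.71%; 0.615%) and with mixed cells kept 4 (0.47%; 0.0403%). Without cKO library 1, 26 were called higher and 1 lower (6.5% and 3.94%). The median log2 difference was 0.81, against -0.01 over all genes tested, and 53 of the 61 lay above 0, against 48.4% of all genes. That median was lower without cKO library 3 and higher without cKO library 1, as given in the last section. For 24 of the 61 the 3 cKO libraries lay above the 3 controls, where 6.37% of all genes did so, and for 1 (Rsph3b) they lay below, where 10.6% did. The summed level was 1016, 868 and 1033 CPM in control and 1142, 1475 and 1542 CPM in cKO libraries, with 1193 CPM in the DKO library. cKO library 1 stood nearest to the controls. Red blood cell genes (the hemoglobin genes Hba-a1, Hba-a2, Hbb-bs and Hbb-bt, and Alas2) summed to 327, 256 and 550 CPM in control, 39.9, 5919 and 1921 CPM in cKO and 1679 CPM in DKO NSC-like cells, so they were also highest in cKO libraries 2 and 3, and their part in the result was not tested.

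The genes named next were chosen after their values were seen. Cfap100, which had the lowest p, stood at 15.1, 17.4 and 16.5 CPM in control and 26.2, 36.6 and 38.5 CPM in cKO libraries (log2 difference 1.14 ± 0.21, adjusted p = 0.059, edgeR). Cfap126 stood at 28.4, 21.96 and 27.1 CPM and at 43.0, 96.0 and 89.2 CPM (1.64 ± 0.31, adjusted p = 0.089). For both genes all 3 cKO libraries lay above all 3 controls. Rsph1 stood at 34.6, 25.01 and 44.6 CPM in control and 56.2, 65.5 and 72.1 CPM in cKO libraries (0.96 ± 0.23, adjusted p = 0.11). The inner arm chain Dnah6 stood at 3.68, 2.44 and 10.2 CPM and at 15.1, 36.1 and 33.5 CPM, and the outer arm chain Dnah5 at 7.98, 5.18 and 10.6 CPM and at 12.98, 27.2 and 23.7 CPM. The groups did not overlap for either chain, but cKO library 1 lay within 5 CPM of the highest control for both.

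For other axoneme genes the groups overlapped. Rsph9 stood at 77.7, 85.1 and 87.4 CPM in control and 87.7, 81.5 and 89.1 CPM in cKO NSC-like cells, and Drc1 averaged 31.1 ± 2.86 and 33.7 ± 7.52 CPM (SD, n = 3 each). Dnah12 stood at 3.68, 2.75 and 4.51 and at 2.88, 6.103 and 5.70 CPM. Expressed as a share of the gene's own ependymal-like mean, the cKO minus control difference in NSC-like cells had a median of 2.71% over the 42 genes with at least 100 CPM there. It was above 5% for 11 genes, led by Cfap100 (9.83%), Cfap69 (9.54%) and Cfap126 (8.88%), and below 1% for 5 genes: Cfap77 (0.94%), Dnah12 (0.35%), Dnah3 (0.17%), Cfap53 (-0.06%) and Dnaic1 (-3.53%). Whether these shares differ beyond their error was not tested.

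Some markers of ependymal cells, and of the NSC-like class itself, moved with this result. The 8 ependymal markers summed to 289, 337 and 393 CPM in control and 330, 502 and 524 CPM in cKO NSC-like cells, none was at 0 in any library, and for 2 of the 8 the cKO libraries all lay above the controls. The 4 ciliary ones (Ccdc153, Tmem212, Foxj1 and Dynlrb2) summed to 54.2, 59.5 and 87.8 CPM and to 74.0, 189 and 209 CPM, and the 4 others to 235, 277 and 306 CPM and to 256, 312 and 316 CPM. The 4 others did not move together. Pltp stood at 79.8, 92.7 and 85.9 CPM in control and 93.3, 160 and 161 CPM in cKO libraries, Mia at 21.5, 36.0 and 42.1 and at 24.04, 7.21 and 11.0 CPM, and Rarres2 at 131, 142 and 172 and at 133, 138 and 134 CPM. In oligodendrocyte-like cells the 8 summed to 51.7 to 112 CPM in control and 73.9 to 103 CPM in cKO libraries. The NSC markers of the same NSC-like cells summed to 5209 to 5717 CPM in control and 5454 to 6149 CPM in cKO libraries, but single markers moved in opposite directions. Gfap stood at 499, 528 and 317 CPM in control and 441, 1057 and 1260 CPM in cKO libraries, while Thbs4 stood at 446, 613 and 318 and at 385, 39.9 and 19.95 CPM and Hes5 at 557, 793 and 617 and at 511, 106 and 187 CPM. For these genes cKO libraries 2 and 3 lay apart from the other libraries. The astrocyte marker Agt stood at 8.80, 24.1 and 15.9 CPM in control and 88.2, 302 and 435 CPM in cKO NSC-like cells, without overlap. It was the sole one of the 8 astrocyte markers with all cKO libraries above the controls, and S1pr1 stood at 387, 313 and 424 and at 327, 294 and 249.9 CPM and Cldn10 at 332, 399.5 and 298 and at 317, 164 and 186 CPM. The 8 summed to 1026 to 1112 CPM in control and 1059 to 1182 CPM in cKO libraries, which overlapped. These genes set the class, so the cells called NSC-like differed in their markers between the genotypes, and the part of this in the axoneme levels was not tested. NSC-like cells with at least 3 ependymal markers were 10.2%, 23.7% and 24.9% in control and 15.0%, 40.5% and 44.0% in cKO libraries. That count was not thinned. Median UMIs per NSC-like cell were 5259.5, 9417 and 7369 in control and 5806, 9887 and 10311 in cKO libraries. The part of depth in these shares was not tested. When the class was limited to cells with at most 2 ependymal markers, an alternative added after the data were seen, the median log2 difference of the axoneme genes was 0.32 over 51 genes, against -0.0070 over all 13264 genes tested. In that fit 0 of all genes were called, and at an unadjusted p under 0.05 8 axoneme genes were higher and 0 lower, as were 562 and 468 of all genes. The part of ependymal RNA or of doublets in the result was not tested.

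**Figure D4:**
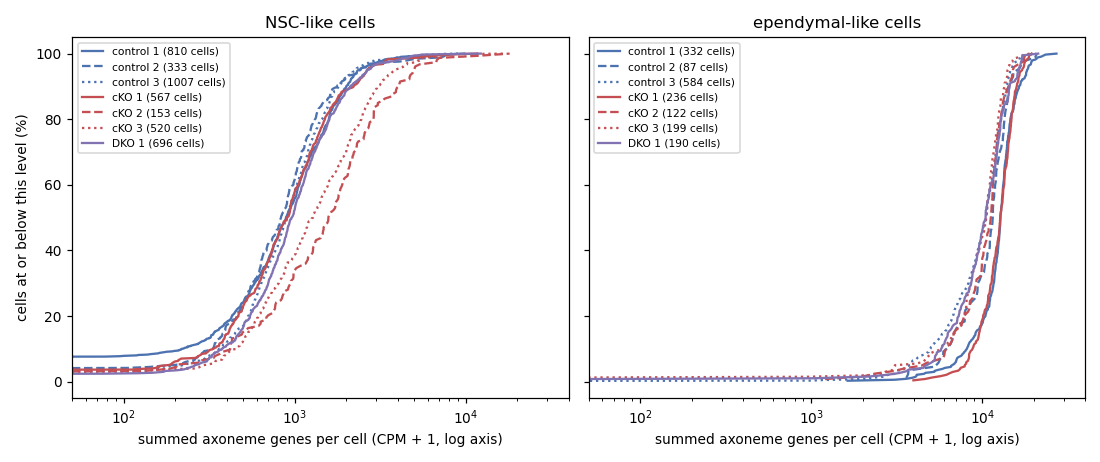
Share of cells at or below a given summed axoneme level per cell (CPM + 1, log axis), 1 line per library, for NSC-like cells on the left and ependymal-like cells on the right. In NSC-like cells the lines of cKO libraries 2 and 3 lie to the right of the other 5 over most of their range, and cKO library 1 runs with the controls.

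Per cell, the median summed axoneme level of NSC-like cells was 890, 830 and 896 CPM in control, 901, 1574 and 1278 CPM in cKO and 960 CPM in DKO libraries. NSC-like cells with a summed axoneme level of at least 2000 CPM made up 10.1%, 7.51% and 7.65% in control, 11.1%, 37.9% and 30.0% in cKO and 11.4% in DKO libraries. Thinned to 2000 UMIs, cells with at least 5 of the 72 genes were 5.50%, 4.36% and 6.26% in control, 7.82%, 18.4% and 18.6% in cKO and 9.18% in DKO libraries. In ependymal-like cells of all libraries that share was 99.4% to 100%. Within Cell Ranger version 6.0.1 (2 control and 2 cKO libraries) the median log2 difference of the axoneme genes in NSC-like cells was 0.52, and within version 6.1.1 (1 and 1) it was 0.85, at a pseudocount of 1 CPM. Among the other lists in NSC-like cells, 41 of 42 axoneme genes with other names lay above 0 (median log2 difference 0.78) and 22 of 28 intraflagellar transport genes (median 0.15), and 0 of either list were called. Foxj1 stood at 24.6, 23.2 and 23.7 CPM in control and 31.3, 104 and 76.2 CPM in cKO NSC-like cells (1.64 ± 0.43, adjusted p = 0.18, edgeR). Gmnc, which acts upstream of Foxj1, had a log2 difference of 1.38 ± 0.60 (adjusted p = 0.35), Rfx3 one of 0.00 ± 0.16 and Ccno one of -0.70 ± 0.80. Of the 8 multiciliated cell regulators tested, 7 lay above 0 and 1 below (median log2 difference 0.89), and 0 were called. In NSC-like cells with at most 2 ependymal markers, 2 of 7 regulators lay above 0 and 5 below (median -0.096). In those cells 13 of 27 intraflagellar transport genes (median -0.022) and 25 of 36 axoneme genes with other names (median 0.26) lay above 0.

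The DKO library lay above all controls for 32 of the 61 axoneme genes in NSC-like cells, where 18.1% of all genes did, and below all controls for 3, where 36.6% did. Cfap126 stood at 36.8 CPM, Rsph1 at 48.5 CPM and Dnah6 at 11.6 CPM in that library.

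In astrocyte-like cells only 33 axoneme genes passed the filter on low counts. Of these 0 were called higher and 0 lower by edgeR (1.01% and 0.183% of 12049 genes were), and DESeq2 also called 0 (1.22% and 0.274%). At an unadjusted p under 0.05, 6 were higher and 1 lower, where 4.97% and 5.17% of all genes were. The median log2 difference was 0.21, against -0.0048 over all genes tested. That median depended on single libraries, as given in the last section. Some class markers moved here too. Agt stood at 86.5, 119 and 73.0 CPM in control and 644.5, 1513 and 1414 CPM in cKO libraries. The ependymal marker Pltp stood at 44.9, 56.3 and 65.5 and at 66.9, 118 and 110 CPM. The NSC marker Thbs4 stood at 98.7, 136 and 74.7 and at 68.3, 10.8 and 8.38 CPM. All cKO libraries lay above the controls for 1 of 8 ependymal and 1 of 8 astrocyte markers, and below them for 2 of 8 NSC markers. The rest of these panels overlapped. The astrocyte marker Cldn10 stood at 1307, 1724 and 1235 and at 1391, 1027 and 992 CPM. The NSC marker Hes5 stood at 369, 524 and 417 and at 558.5, 549 and 521 CPM. Over the whole panels, the 8 ependymal markers summed to 195, 242 and 308 CPM in control and 214, 271 and 281 CPM in cKO libraries. The 8 NSC markers summed to 1441, 1469 and 1297 and to 1430, 1257 and 1302 CPM. The 8 astrocyte markers summed to 4381, 4567 and 4178 and to 4942, 5167 and 4737 CPM, without overlap. The part of these markers in the result was not tested. Cfap97d2 stood at 30.5, 23.3 and 17.3 CPM in control and 31.5, 45.8 and 44.9 CPM in cKO libraries (0.82 ± 0.22, adjusted p = 0.087, edgeR). Cfap20 stood at 64.3, 69.3 and 50.5 and at 79.8, 112 and 88.6 CPM (0.61 ± 0.17, adjusted p = 0.11). The cKO libraries all lay above the controls for both, as for 6 of the 33 axoneme genes and 7.54% of all genes. For 2 (Drc1 and Tekt4) they lay below, where 6.95% of all genes did. Rsph9, the most abundant spoke gene of these cells, stood at 56.0, 80.7 and 77.0 and at 79.8, 72.5 and 70.1 CPM, and the groups overlapped. Without cKO library 1, Cfap97d2, Cfap20, Tekt1 and Cfap100 were called higher (2.22% of all genes; 1.71% lower). With no filter on low counts 4 axoneme genes were called higher (1.42%; 0.837%), and 4 with the replicate block (2.74%; 1.95%). The DKO library lay above all controls for 13 of the 33 genes, where 23.5% of all genes did, and below for 5, where 26.2% did.

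Most axoneme UMIs lay outside the filtered cells. Barcodes with over 7000 genes numbered 1989 and held 20.9% of all UMIs but 63.8% of the UMIs of the 72 genes, 51.1% to 77.5% per library. Kept cells held 31.4%. Of the 1989 barcodes, 909 (45.7%) met the ependymal-like definition, with a median of 57698 UMIs and 62 of the 72 genes, and a further 431 were mixed. The summed axoneme level of the 909 was 11796 CPM, against 12173 CPM in the 1750 kept ependymal-like cells. They were 27.9% of all barcodes that met this definition, and some of them were also over the mitochondrial limit. Their shares of the barcodes over the limit were 62.0%, 27.3% and 58.6% in control, 67.5%, 33.9% and 33.3% in cKO and 36.4% in DKO libraries. With the upper limit removed, an alternative added after the data were seen, 0 axoneme genes were called in ependymal-like cells of 68 tested (median log2 difference -0.05), where 0.0471% of all genes were higher and 0% lower. In NSC-like cells 40 of 65 were then called higher and 0 lower, where 4.10% and 0.257% of all genes were, with a median log2 difference of 2.14 against -0.03 over all genes. Ependymal markers moved with this: in the same fit the 4 ciliary markers had a median log2 difference of 3.10 (2 called higher), and the 4 others one of 1.48 (2 called higher). The NSC-like barcodes over the limit carried a median of 6 to 8 of the 8 ependymal markers in cKO and 3 to 4.5 in control libraries. Because UMIs were summed, deep barcodes weighed more in this fit. In cKO library 3, 62 such barcodes had a median of 70817 UMIs, beside 520 kept cells at 10311. In control library 3, 20 had a median of 49331 UMIs, beside 1007 kept cells at 7369. The study took out barcodes above 7000 features as potential doublets, and the part of doublets was not tested.

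**Figure D5:**
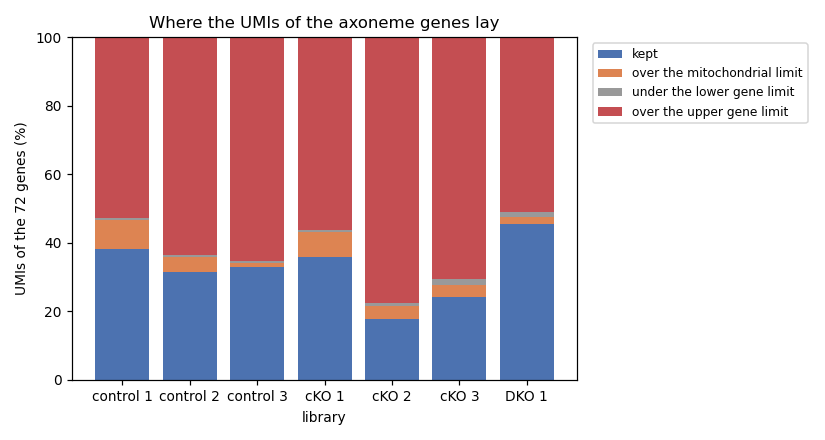
Share of the UMIs of the 72 genes in each library, in percent, that lay in kept cells, in barcodes over the mitochondrial limit, under the lower gene limit or over the upper gene limit. Barcodes over the upper gene limit hold 51.1% to 77.5%.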

How the data were processed

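The authors aligned 10x Genomics 3′ v3.1 reads to mm10 with Cell Ranger and deposited raw UMI counts per gene and barcode. Per the file headers, version 6.0.1 made replicates 1 and 2 of both main genotypes, and version 6.1.1 made the other 3 libraries. Counts were filtered as in the study (500 to 7000 genes, at most 10% mitochondrial UMIs). Cells were assigned by marker panels and not by clustering: a class needed at least 3 of 8 markers, a panel share of at least 0.3 of the typical share and a second class at or below 0.5 of the first. That scoring was set after the cells had been viewed. Cells failing the last condition were left out, which stood in for doublet removal, and no doublet caller was run. Counts were summed per library and class and tested in edgeR 4.0.16 (expression filter, TMM, quasi-likelihood; all 7 libraries in 3 groups; class comparisons with library as a block), with Benjamini-Hochberg adjustment at 0.05. The SE given with edgeR results was derived from the log2 difference and the F statistic of the test. DESeq2 1.42.0 (R 4.3.3), other filters and gates, and left-out libraries were alternatives. On simulated counts 200 genes were changed by a log2 value of 1. In ependymal-, NSC- and astrocyte-like cells 140, 135 and 137 of them were recovered (70.0%, 67.5% and 68.5%). False calls numbered 12, 13 and 16, a larger share of the calls than the 0.05 threshold aims at. Only genes well above a few CPM were changed, and recovery was not split by gene level. These shares therefore do not give the recovery of axoneme genes at a few CPM. In NSC-like cells Dnah12, Cfap53 and Dnah10, for example, averaged 4.11, 2.55 and 2.16 CPM. Equal replicate numbers share no stated origin and were not used to pair the libraries in the main fits. The genes and lists were chosen with earlier results of these data known. Genes were named in part by rule: the 3 highest per stem in ependymal-like cells, those called between genotypes, and near-identical copies. The rule also took the 5 largest changes in each direction in ependymal-like cells and up to 8 genes whose highest class was another. Other genes, among them Cfap100, Cfap97d2, Cfap20, Cfap36, Cfap74 and Cfap298, were named outside this rule, with their values known. Coordinates come from GENCODE vM21.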

Additional observations from a re-analysis of the deposited data

Results flagged for a closer look

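These values come from barcodes that the main comparisons left out and that entered only the alternative without an upper gene limit. Barcodes with over 7000 genes held 63.8% of the UMIs of the 72 axoneme genes. Among these barcodes, those with an NSC-like marker profile had a higher axoneme level in each cKO library than in any control library. Their median summed level was 2436 CPM in cKO library 1 (20 barcodes), 3888 CPM in cKO library 2 (24) and 4780 CPM in cKO library 3 (62). In the control libraries it was 1029 (13 barcodes), 837 (14) and 989 CPM (20), and in the DKO library 1594 CPM (22). The medians were 35 to 55 axoneme genes per barcode in cKO and 21 to 25 in control libraries. Ependymal markers moved with this: a median of 6, 7 and 8 of the 8 was detected in the cKO and 3, 4.5 and 4.5 in the control barcodes, while the median of NSC markers was 7, 6 and 6 of 8 in the cKO and 7 in each control library. Median UMIs were 42281, 69086 and 70817 in cKO and 42604, 48874 and 49331 in control barcodes. The part of doublets and of depth was not tested.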

How the results depend on the processing

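In ependymal-like cells no alternative called an axoneme gene, except that leaving out cKO library 1 called 1 lower (Dnah3). Over the left-out libraries the count called lower ranged from 0 to 1 and the median log2 difference from -0.08 to 0.01. Cfap73 changed sign with no upper gene limit (-0.017) and Cfap69 at a mitochondrial limit of 5% (-0.037).

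In NSC-like cells the count called higher rose from 0 to 13 with DESeq2, 11 with no filter on low counts, 10 with the replicate number as a block, 4 with mixed cells kept and 40 with no upper gene limit. Over the left-out libraries it ranged from 0 to 26, all 26 without cKO library 1, and the count called lower from 0 to 1. The median log2 difference ranged from 0.48 (without cKO library 3) to 1.08 (without cKO library 1), and was 1.16 with mixed cells kept, 2.14 with no upper limit and 0.32 in cells with at most 2 ependymal markers. Rsph9 changed sign in those cells (-0.23). Calls over all genes moved from 5 to 1479 without cKO library 1.

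In astrocyte-like cells 4 genes were called higher with no filter on low counts and 4 with the replicate block; over the left-out libraries 0 to 4 were, and the median ranged from 0.033 to 0.26. It was 0.44 with mixed cells kept. In the replicate pairs the correlation of deviations was 0.27, -0.0005 and 0.29 in ependymal-like and 0.26, 0.07 and 0.37 in NSC-like cells. In astrocyte-like cells it was 0.18, 0.05 and 0.36. For pairs with unequal numbers it ran from -0.30 to 0.04 in ependymal-like, -0.35 to 0.02 in NSC-like and -0.28 to 0.06 in astrocyte-like cells. The replicate block changed no call in ependymal-like cells.

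Against NSC-like cells 66 genes were higher in every alternative, with 0 to 1 lower and a median of 4.31 to 4.53 over the left-out libraries, 4.14 with no filter and 3.72 with no upper limit. Against astrocyte-like cells the median was 6.21 with DESeq2 and 5.91 to 6.20 over the left-out libraries. The causes were not tested. Small classes limit depth: the fewest ependymal-like cells were the 87 of control library 2 and the fewest NSC-like cells the 153 of cKO library 2. Libraries were pools of mice, and the genotypes' shares of ependymal cells in tissue cannot be read from these counts.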
